A study of Drosophila melanogaster with 2 samples.

Results

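The genes described here are 36 cell cycle and DNA replication genes of Drosophila melanogaster, taken by symbol from a list and found in the Ensembl annotation, out of 18164 genes on the 6 chromosome arms, of which 13945 are protein-coding. For each gene, deposited peaks of the protein CG32767 were taken if their summit lay 500 bp or less from a transcription start site (TSS) of the gene, here called a promoter summit, or within the gene span or 2 kb to either side. The peaks came from chromatin immunoprecipitation and sequencing of whole embryos aged 0 to 24 h, in which CG32767 carried an enhanced GFP tag on a transgene and was precipitated with an anti-GFP antibody. There was 1 group with 2 biological replicates of 1 library each, and no control library was analysed here, so the study holds no contrast between conditions. The values describe a tagged transgene product, and the sources used here do not say what drives it. Whole embryos of this age span mix early nuclear divisions, cycling tissues and cells that have stopped dividing, so a peak cannot be assigned to a cell type or a cell cycle phase. How deeply either library was sequenced is unknown, since no list gives counts of reads.

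The cell cycle is driven by cyclin-dependent kinases (CDKs), which act only when bound to a cyclin. Cyclin E with Cdk2 starts S phase, cyclins A and B with Cdk1 start mitosis, Cdc25 phosphatases switch Cdk1 on and Wee1 holds it off, and the anaphase-promoting complex (APC/C) destroys the mitotic cyclins. DNA replication is licensed when the origin recognition complex, Cdc6 and Cdt1 load the MCM helicase onto DNA, a step that geminin blocks. Many of these genes are targets of E2F, a heterodimer of an E2f protein and Dp that the retinoblastoma protein Rbf restrains. In fly embryos maternal products run the first divisions, and later divisions depend on timed zygotic transcription of the Cdc25 gene string (stg).

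The sequences at 5 of the 18 conservative summits at these genes are given first, as examples of what lies under them. They are windows that reach 50 bp to either side of the summit, 101 bp each, from the RefSeq dm6 genome on the strand of the gene. CycE, Cdk1 and aurB are members with a promoter summit, fzr has the second strongest peak of any member, and the E2f1 window lies in an intron of that gene. Capitals mark a run of 8 A in CycE, the TATA letters TATAAA or their reverse complement in Cdk1 and aurB, CGATA and CAGCTG in fzr, and GAGAG in E2f1.
CycE promoter summit, chr2L:15747060-15747160, minus strand: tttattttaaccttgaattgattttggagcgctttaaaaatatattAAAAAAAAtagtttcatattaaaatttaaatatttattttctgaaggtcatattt
Cdk1 promoter summit, chr2L:10386431-10386531, minus strand: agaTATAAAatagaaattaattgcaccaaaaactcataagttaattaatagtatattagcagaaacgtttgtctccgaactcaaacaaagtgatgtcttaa
aurB promoter summit, chr2L:10858393-10858493, minus strand: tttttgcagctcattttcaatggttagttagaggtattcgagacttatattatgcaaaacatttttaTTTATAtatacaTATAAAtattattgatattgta
fzr summit past the 3′ end, chrX:4666980-4667080, minus strand: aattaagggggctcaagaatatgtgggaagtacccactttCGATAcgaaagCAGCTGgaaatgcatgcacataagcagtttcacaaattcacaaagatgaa
E2f1 intron summit, chr3R:21656926-21657026, minus strand: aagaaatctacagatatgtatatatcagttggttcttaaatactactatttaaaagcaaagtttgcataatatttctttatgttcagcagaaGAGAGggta
The CycE window was 83.2% A and T, the highest share at any of these genes' peaks, and Cdk1 and aurB had 73.3% and 78.2%. The fzr window, under the stronger peak, had 59.4%. All 5 examples hold at least 1 of the searched words, whereas 6 of the 18 windows held none. Among promoter summits not printed, the windows had 46.5% A and T at dup, 56.4% and 61.4% at Dp and 74.3% at fzr, so the printed ones do not stand for all.

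Promoter summits were about as frequent at the cell cycle genes as at genes in general. In the authors' conservative list of 3533 peaks, made from both replicates, 6 of 36 members had a promoter summit (16.7%, 95% exact Clopper-Pearson interval 6.37 to 32.8), against 14.1% of protein-coding genes. The 6 were CycE, Cdk1, fzr, aurB, dup and Dp. In the longer combined list of 4636 peaks, 5 members had one (13.9%, 4.67 to 29.5), against 17.4% of protein-coding genes. In the list of replicate 1 there were 5 (13.9%), against 12.1% of protein-coding genes. The list of replicate 2 gave 1, at Dp (2.78%, 0.0703 to 14.5), against 10.6% of protein-coding genes. The background share lies within the interval of the members in the conservative, longer and replicate 1 lists, and also in that of replicate 2. Intervals cover counting error over genes only.

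More members had a peak somewhere at the locus. A conservative summit lay in the gene span or 2 kb around it at 14 of 36 members (38.9%, 23.1 to 56.5), against 27.2% of protein-coding genes. The count was 15 in the longer list (41.7%, against 32.2% of protein-coding genes), 11 in that of replicate 1 (30.6%, against 23.7%) and 9 in that of replicate 2 (25%, against 20.9%). The members were longer than protein-coding genes in general, with a median of 2869 bp against 2166 bp. Whether gene length plays a part in the share was not tested. A summit of at least 1 of the 4 thresholded lists lay in this wider region at 17 members (47.2%, 30.4 to 64.5), against 34.6% of protein-coding genes, and 19 members had none. The background lies within the members' interval here too.

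**Figure D1:**
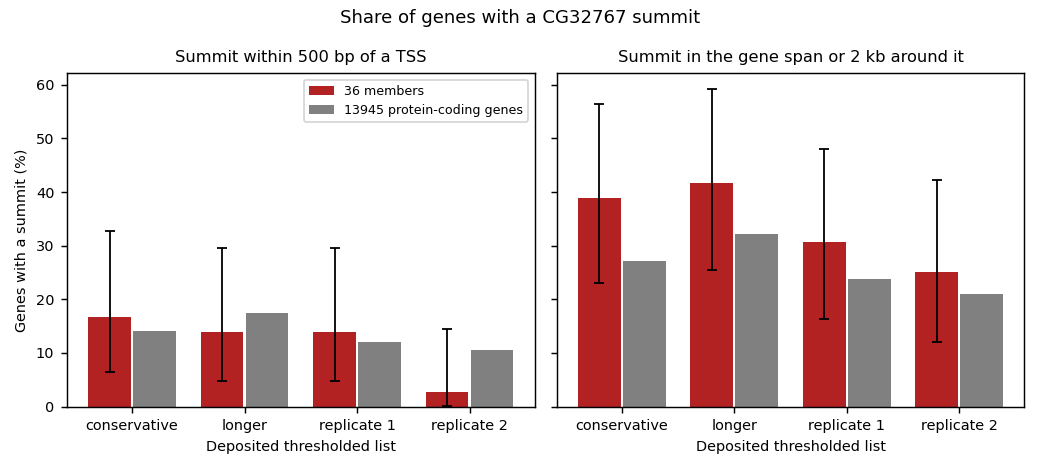
Share of the 36 members (red, with 95% exact intervals) and of the 13945 protein-coding genes (grey) with a summit within 500 bp of a TSS (left) or in the gene span or 2 kb around it (right), in each deposited thresholded list. The members' share of promoter summits is 16.7% in the conservative list and 2.78% in that of replicate 2, and each interval holds the grey bar's value.

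Promoter summits were scattered over the roles. They fell on 1 of 2 G1 and S phase cyclins, 1 of 3 CDKs, 1 of 2 APC/C activators, 1 of 3 mitotic kinases, 1 of 4 licensing and clamp genes and 1 of 4 genes of the E2F and Rb group. None was found at the 3 mitotic cyclins, the 3 genes of the Cdc25 and Wee1 group, the 6 MCM subunits, the 5 subunits of the origin recognition complex or the CDK inhibitor dap. Of all protein-coding genes 14.1% had a promoter summit in the same conservative list. The groups are small, so a count of 0 in 6 genes says little, and so does 1 in 2.

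Among the cyclins, CycB, the mitotic cyclin whose destruction ends mitosis, lay beside the strongest peak of any member. Its signal was 505.9 in the peak caller's units, 85th of 3533 in the list, with 290.7 in replicate 1 and 207.9 in replicate 2 (2R, 22802831 to 22803113). For a replicate, the signal given is the highest among overlapping candidates of that replicate's ranked list. The summit was intergenic, 530 bp past the 3′ end of CycB and 3312 bp from its nearest TSS, and no other gene's TSS was nearer. Both replicate lists held it. At the CycB promoters themselves the strongest candidate of the combined ranked list, which also holds sites that passed no threshold, had a signal of 53.7 and passed no list. Promoter candidates of other genes are from that list too.

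CycE, whose product triggers S phase, had a peak of 150.7 in an intron of the gene (2L, 15746915 to 15747304). The signals were 89.0 in replicate 1 and 64.4 in replicate 2. Its summit lay 500 bp upstream of an internal TSS, at the very edge of the promoter window. The peak was in both replicate lists, but the summit of the replicate 2 peak was 10 bp away and fell outside that window, so the promoter count of replicate 2 leaves it out. CycA and CycB3, the other mitotic cyclins, had promoter candidates of 17.7 and 33.4 and no peak in any thresholded list. CycD, the cyclin of Cdk4, had no promoter candidate in either replicate.

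Of the kinases these cyclins bind, Cdk1, the mitotic CDK, had a promoter peak of 105.2 (2L, 10386286 to 10386675). It had 70 in replicate 1 and 33.9 in replicate 2. The replicate 1 list held it and the replicate 2 list did not. The summit was 219 bp upstream of Cdk1 but 181 bp from the TSS of mRpS7, a mitochondrial ribosomal protein gene, so the peak belongs as much to that promoter. Another peak, of 72.2, lay 1796 bp upstream of Cdk1 and 47 bp from the TSS of da, which encodes the helix-loop-helix factor Daughterless (2L, 10387863 to 10388252, 30.8 in replicate 1 and 41.9 in replicate 2).

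Cdk4, the kinase of the growth-responsive cyclin D, had a pair of peaks of near equal size and no promoter summit. One, of 123.5, lay in an intron of the gene (2R, 16583808 to 16584197, 51.6 in replicate 1 and 71.3 in replicate 2). The other, of 107.1, lay 608 bp upstream of its nearest TSS, just outside the window, with 53.2 in replicate 1 and 55.5 in replicate 2 (2R, 16578667 to 16579056). No other gene's TSS lay within 500 bp of either. Cdk2, the kinase of cyclin E, had a promoter candidate of 24.0 and no peak.

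The phosphatases and the kinase that switch Cdk1 had no promoter summit. The strongest promoter candidates were 53.4 at stg, the Cdc25 gene of the embryonic mitoses, and 29.4 at Wee1, and twe, the Cdc25 gene of meiosis, had none. A peak of 121.3 lay past the 3′ end of twe, 149 bp from the TSS of EndoGI, an inhibitor of endonuclease G, and within 500 bp of one of PRL-1, a phosphatase gene (2L, 16257661 to 16258050). In replicate 2 its signal was 57.8. No candidate of the replicate 1 ranked list overlapped it, although the combined ranked list pairs it with a signal of 73.4 from one set and 57.8 from the other.

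Of the APC/C activators, fzr, the Cdh1 of flies, which keeps the complex active in G1 and in endocycles, had the second strongest peak of any member. It had a signal of 360.3 (X, 4666863 to 4667126), with 201.4 in replicate 1 and 160.3 in replicate 2, and was in both replicate lists. This summit lay 260 bp past the 3′ end of fzr and 330 bp from the TSS of CG3009. The promoter summit of fzr was weaker, 78.9, at 452 bp upstream and inside the 3′ UTR of the phosphatase gene Pp2C1 (X, 4679794 to 4680183, 42.9 in replicate 1 and 34.6 in replicate 2). It was in the replicate 1 list and not in the longer combined list. fzy, the Cdc20 that starts anaphase, had a promoter candidate of 26.8 and no peak.

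All 3 mitotic kinases had a peak in some list, against 34.6% of protein-coding genes, and each peak was near another gene's TSS. With 3 genes that count says little. aurB, the kinase of the chromosomal passenger complex, had a promoter peak of 83.5 (2L, 10858248 to 10858637), 349 bp upstream but 93 bp from the TSS of Stam, an endosomal sorting gene. Its signals were 37.0 in replicate 1 and 38.6 in replicate 2, and neither replicate list held it. polo, whose kinase acts on centrosomes, spindles and cytokinesis, had a peak of 83.9 past its 3′ end, 78 bp from the TSS of alphaSnap (3L, 20313515 to 20313904, 42.6 in replicate 1 and 40.9 in replicate 2), also in neither replicate list. aurA, the centrosomal Aurora kinase, had its promoter summit outside the conservative list. Its signal in the longer combined list was 73.1 (3R, 11962671 to 11963060), 258 bp upstream and 61 bp from the TSS of CG3281. Its signals were 56.5 in replicate 1, where it passed the threshold, and 20.6 in replicate 2, where it did not.

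A conservative summit in the wider region was found at 27.2% of protein-coding genes. Of the genes of the helicase and of the origin recognition complex, 1 had such a summit. This was dpa, which encodes Mcm4, with a peak of 82.0 in the 5′ UTR of its neighbour CG1620 (2R, 7496137 to 7496526), with 56.8 in replicate 1 and 32.2 in replicate 2. The promoter candidate of dpa, 59.8, was the highest among members with no promoter summit in any thresholded list. Another gene's TSS lay 2 bp from a TSS of dpa, so this promoter is shared. Mcm3 had a summit in the replicate 1 list alone, 40.9, at 1137 bp upstream and 22 bp from the TSS of Rnp4F (X, 5322543 to 5322892). Mcm2 had a promoter candidate of 51.2, Mcm3, Mcm5 and Mcm6 had 19.3, 19.1 and 21.0, and Mcm7 had none. None of the origin recognition genes had a conservative summit in the wider region. Orc6 had one in the longer list, 75.1, and in that of replicate 2, 56.0, at Sting, an innate immune receptor gene beside it (2R, 9843701 to 9844090). Orc1 and Orc5 had promoter candidates of 33.8 and 35.4, and Orc2, Orc4 and Orc6 had none in the combined ranked list.

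Of the remaining licensing genes, dup, which encodes Cdt1, had the weakest peak of the 18, with a signal of 49.4 (2R, 15380629 to 15381018). It lay 164 bp downstream of the dup TSS and 100 bp from that of SRPK, a kinase of splicing factors, in the 5′ UTR of both. It was in neither replicate list and not in the longer list. The overlapping replicate 1 candidate had 37.3, and no replicate 2 candidate overlapped the peak, although the combined ranked list pairs it with 37.3 and 39.2. Replicate 2 did have a promoter candidate of dup with a signal of 39.2, outside the peak. In the combined ranked list a stronger promoter candidate of dup than the peak, 56.9, did not pass. Cdc6, the loader of the helicase, had a peak of 68.0 in one of its coding exons, which lies within an intron of Zasp66, a muscle gene (3L, 8631824 to 8632213, 40.0 in replicate 1 and 30.5 in replicate 2), in neither replicate list. geminin, the inhibitor of Cdt1, and PCNA, the sliding clamp, had promoter candidates of 42.2 and 34.0 and no peak.

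The E2F group had a conservative summit in the wider region at 3 of its 4 genes, against 27.2% of protein-coding genes. With 4 genes that count says little. Dp, the partner of either E2f protein, was the only member with a promoter summit in each of the 4 thresholded lists. Dp had a pair of peaks around an internal TSS, in its own intron. One of 182.7 lay 373 bp downstream (2R, 13223769 to 13224158), with 84.2 in replicate 1 and 97.5 in replicate 2, and within 500 bp of the TSS of lncRNA:CR43918. The other, 177.0, lay 251 bp upstream (2R, 13223300 to 13223427), with 114.3 in replicate 1 and 65.0 in replicate 2. All 4 thresholded lists held both.

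E2f1, the activating E2F, had 1 conservative peak, of 111.7, in an intron 3456 bp downstream of its nearest TSS (3R, 21656781 to 21657170, 64.5 in replicate 1 and 47.1 in replicate 2). The longer list added summits of 80.4, 79.5, 55.2 and 2.83 in its span, which is the longest of the members at 40568 bp. The summit of 80.4 had 25.05 in replicate 1 and 56.9 in replicate 2, and that of 79.5 had 53.1 in replicate 1 and 22.5 in replicate 2. The replicate 2 list held a summit at the site of 80.4 and the replicate 1 list one at that of 79.5. E2f2, the repressive E2F, had a peak of 99.7 at 1917 bp upstream (2L, 21158471 to 21158860, 56.5 in replicate 1 and 44.3 in replicate 2), 55 bp from the TSS of Coq3, a gene of ubiquinone synthesis. Rbf, the pocket protein that binds E2F, and dap, the inhibitor of cyclin E and Cdk2, had promoter candidates of 25.05 and 39.0 and no peak.

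**Figure D2:**
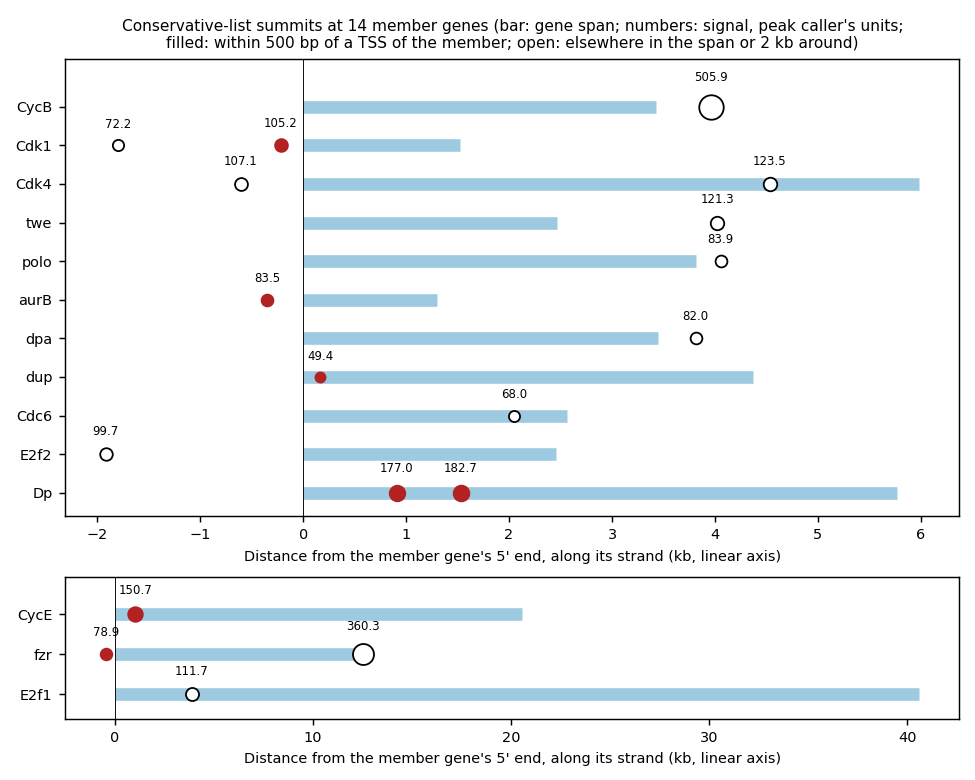
Conservative summits at the 14 members that had one, by distance in kb from the gene's 5′ end along its strand (bars are gene spans, numbers and circle sizes are signals, filled circles are promoter summits). The strongest circles, CycB at 505.9 and fzr at 360.3, lie just past the 3′ ends of their genes.

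The 18 distinct peaks at these 14 members resembled the rest of the list in size. Their signals ran between 49.4 and 505.9, with a median of 106.2 against 104.8 for all conservative peaks, and 10 were above the median of the list. The nearest TSS was the member's own for 7 peaks and another gene's for 11. The same split was not computed for peaks at protein-coding genes in general, so it cannot be read as a trait of the members. Of the 18, 12 were in the replicate 1 list, 8 in the replicate 2 list, 6 in both and 4 in neither. In the conservative list as a whole 45.8% were in both and 19.6% in neither.

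Crowded promoters were common, at members and at protein-coding genes in general. Another gene's TSS lay within 1000 bp of one of the gene's own in 22 of 36 members (61.1%), against 48.2% of protein-coding genes. No interval was computed for this share. Of the 14 members with no such neighbour, 1 had a promoter summit, fzr (7.14%), against 8.15% of the protein-coding genes with no such neighbour. With several TSSs a gene has more window to catch a summit, and 22 members (61.1%) had a single TSS, against 73.5% of protein-coding genes. Of these 22, 2 had a promoter summit (9.09%, 1.12 to 29.2), against 10.2% of protein-coding genes with 1 TSS. Of the 14 with 2 or more TSSs, 4 had one (28.6%, 8.39 to 58.1), against 24.9%. Counted this way too, the members' shares lay near the background.

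A value for every member comes from the ranked list behind the conservative one, which holds 121998 candidates that mostly passed no threshold. Of 36 members 30 had a promoter candidate (83.3%, 67.2 to 93.6), against 75.4% of protein-coding genes, and the 6 without were CycD, twe, Mcm7, Orc2, Orc4 and Orc6. The median signal of the strongest promoter candidate was 33.9 over the members, a gene without one counting as 0, against 26.0 over protein-coding genes. Placed among the best candidates of all protein-coding genes, the members had a median percentile of 61.3, with quartiles of 41.6 and 77.8. Above the 50th percentile, which by definition about 50% of protein-coding genes exceed, lay 24 of 36 members. Above the 90th lay 3 (8.33%), Dp at 96.0, CycE at 94.6 and Cdk1 at 91.1. The next without a promoter summit in any thresholded list were dpa, CycB and stg, at 81.1, 77.9 and 77.8, and the lowest with a candidate were CycA, Mcm5 and Mcm3, at 37.4, 39.4 and 39.8. The members thus spread over most of the range. Their share above the 90th percentile was close to what that percentile fixes for all protein-coding genes. The strongest candidate is taken over all TSSs of a gene, and 61.1% of members had a single TSS, against 73.5% of protein-coding genes. Whether this plays a part in the percentiles and medians was not tested.

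Among 26 members with a promoter candidate in both replicates, Pearson's r of the log2 signals was 0.56 and Spearman's rho was 0.45, against 0.74 and 0.68 over 7449 protein-coding genes. These correlations are across genes, which are not independent replicates, and both lists come from the same fly line and method. Signals rank peaks within 1 list only, so members were placed among the protein-coding genes of each replicate by percentile. Cdk1 stood at the 92.7th percentile in replicate 1 and the 81.9th in replicate 2, and aurA at 90.5 in replicate 1 and 63.6 in replicate 2. CycB stood at 51.1 in replicate 1 and 87.7 in replicate 2, Wee1 at 35.8 in replicate 1 and 85.4 in replicate 2, and geminin, with no candidate in replicate 1, at 86.9 in replicate 2. CycE stood at 94.8 in replicate 1 and counts as having no promoter candidate in replicate 2, where the summit of its peak fell outside the window. The median percentile was 57.5 in replicate 1 and 67.4 in replicate 2.

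**Figure D3:**
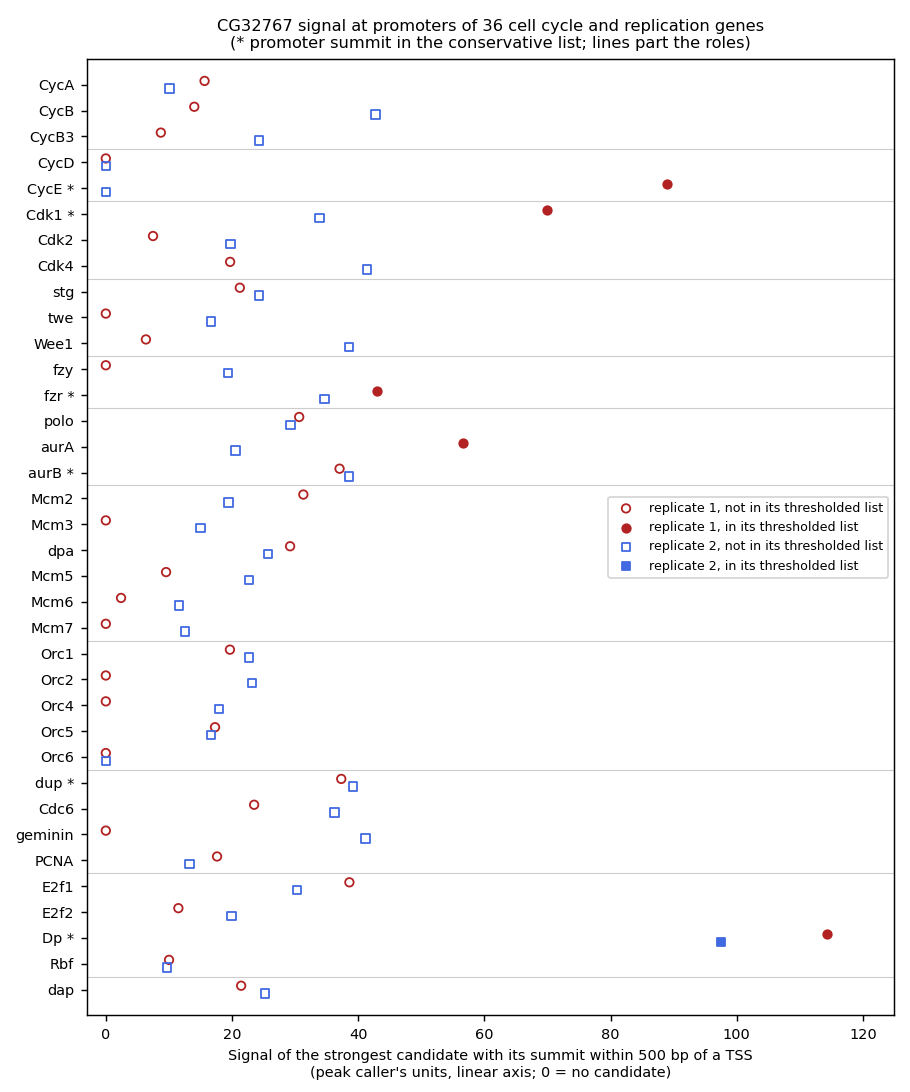
Signal of the strongest promoter candidate of each member in replicate 1 (red circles) and replicate 2 (blue squares), on a linear axis in the peak caller's units, grouped by role, with filled symbols for summits in that replicate's thresholded list and 0 for no candidate. Dp, at 114.3 and 97.5, is the member with filled symbols in both replicates, and CycE, Cdk1, fzr and aurA have one in replicate 1 alone.

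Promoter sequence was examined next, since the rule did not use it. Short words were searched on both strands from 250 bp before to 50 bp after each TSS, and a gene was counted if any of its promoters held the word. The E2F letters were TTTGGCGC, TTTCCCGC, TTTCGCGC and TTTGCCGC. They were found in 13 of 36 members (36.1%), against 8.69% of protein-coding genes. The 13 were CycB, CycE, stg, Mcm2, Mcm3, dpa, Mcm5, Mcm6, Orc1, Orc4, Orc5, Orc6 and dup, thus 5 of the 6 MCM genes and 4 of the 5 origin recognition genes. Of these 13 members 2 had a promoter summit of CG32767, CycE and dup, and 4 of the 23 without the letters had one. Of all protein-coding genes 14.1% had one, and these counts are too small to tell members with and without the letters apart. In windows that reach 250 bp to either side, an alternative added after seeing the data, 15 members held them, against 12.9% of protein-coding genes.

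The E2F letters of 7 members are given next, 30 bases each from the RefSeq dm6 genome on the strand of the gene with the motif letters in capitals, since they are the sequence feature in which these genes stood furthest from the background. In CycE they begin 114 and 91 bp upstream of the same TSS. In stg and Mcm3 they begin 13 and 6 bp upstream, and in Mcm2, Mcm5, Mcm6 and Orc5 they begin 36, 32, 13 and 10 bp downstream.
CycE, chr2L:15746706-15746735, minus strand: ttgttgcatttTTTGGCGCttcggatccgc
CycE, chr2L:15746683-15746712, minus strand: gatccgcctgtTTTGGCGCgttcctcatgc
stg, chr3R:29255795-29255824, minus strand: taaaagctcgcGCGCCAAAatcagtggcct
Mcm2, chr3R:8264995-8265024, plus strand: ttagcaaacatTTTCCCGCgcattttcgca
Mcm3, chrX:5323838-5323867, plus strand: cacactacgctTTTCCCGCgaaaaaacttt
Mcm5, chr3R:10788545-10788574, plus strand: cggtaattttgGCGGCAAAatattcgcaca
Mcm6, chrX:6674389-6674418, plus strand: gtcagaaaaagGCGCCAAAaccgagcaaag
Orc5, chr2L:13829836-13829865, plus strand: agagggaataaTTTGGCGCcatttcaatgg
Of these 7 members CycE had a promoter summit, which lay 500 bp upstream of the same TSS and so farther out than the letters. stg, Mcm2, Mcm3, Mcm5, Mcm6 and Orc5 had none.

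The DNA replication-related element (DRE), TATCGATA, the site of the factor Dref and named for replication genes, was present in 6 members (16.7%), against 10.2% of protein-coding genes. They were CycA, Cdk2, Cdk4, Orc2, Orc5 and PCNA, and none of the 6 had a promoter summit. Of all protein-coding genes 14.1% had one, so a count of 0 in 6 genes says little. The share among all protein-coding genes with the DRE was not computed. The DRE contains the shorter words CGATA, a part of the site of the insulator protein BEAF, and ATCGAT, so these counts overlap. CGATA was in 61.1% of members, against 53% of protein-coding genes, and ATCGAT in 36.1%, against 26.3%. The sites of 4 of these members are shown with the DRE in capitals, to set them beside the summit windows, none of which holds it.
CycA, chr3L:11833571-11833600, minus strand: acgccacgaccTATCGATAgctggacagtg
Cdk2, chr3R:20735551-20735580, plus strand: taaggaattctTATCGATAtgtggcgctgc
Orc5, chr2L:13829756-13829785, plus strand: ttatttcgttaTATCGATAtttttcgattg
Orc2, chr3R:13964673-13964702, plus strand: taatttaaattTATCGATAacgtatgcaat
Orc2, chr3R:13964891-13964920, plus strand: catgtcttagtTATCGATAattcccgccac
The DRE began 11 bp upstream of the TSS in CycA, 61 bp upstream in Cdk2 and 70 bp upstream in Orc5, and in Orc2 at 201 bp upstream and 17 bp downstream.

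Of the other words, GGTCACAC, the core of the promoter element Motif 1, was in 7 members (19.4%), against 8.71% of protein-coding genes. TTTGAA or TTCGAA, the word of the cell cycle genes homology region known from mammalian promoters, was in 24 (66.7%), against 54.0%. TATAAA was in 18 (50%), against 51.2%, and GAGAG, the word of the GAGA factor, in 12 (33.3%), against 36.3%. No member held CAGGTAG, the word of the genome activator Zelda, which was in 2.3% of protein-coding genes. These shares count a gene once over all its promoters, and a smaller share of members had a single TSS (61.1%, against 73.5%). Per promoter, TTTGAA or TTCGAA was in 50.8% of 59 member promoters, against 46.4% of protein-coding ones. CGATA was in 49.2%, against 45.7%, TATAAA in 33.9%, against 42.2%, and GAGAG in 28.8%, against 33.1%. The E2F letters were in 13 of the 59, against 6.74%, the DRE in 11.9%, against 7.98%, and GGTCACAC in 11.9%, against 6.72%. A match says that the letters are there, not that a factor binds them.

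**Figure D4:**
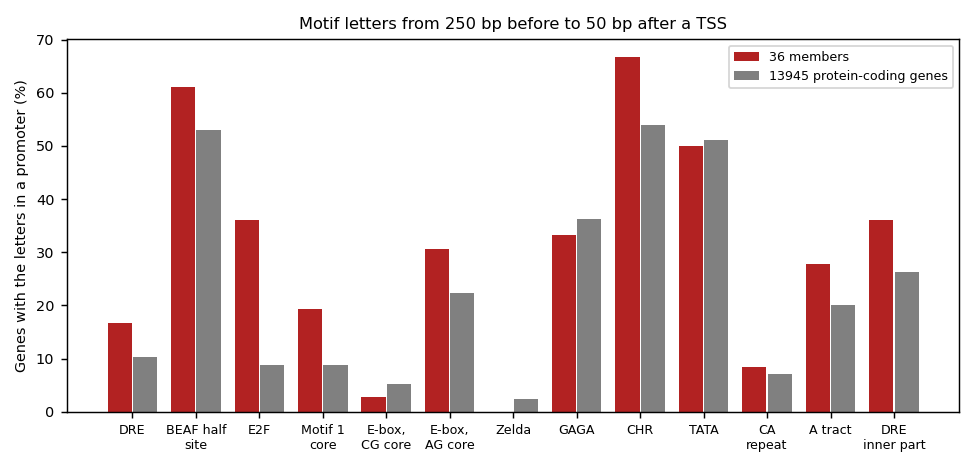
Percent of the 36 members (red) and of the 13945 protein-coding genes (grey) whose promoters, 250 bp before to 50 bp after a TSS, hold the letters of each motif on either strand. The E2F letters differ most, with 36.1% of members and 8.69% of protein-coding genes.

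The same words were counted under the 18 summits, in windows of 101 bp. These are shorter than the promoter windows of 300 bp, so their shares cannot be set beside those of promoters. The DRE was in 0 of 18, and in 1.42% of the windows at all 3531 conservative summits on the arms. In windows 500 bp to either side of those summits its share was 0.467%. The E2F letters were in 1, at the dpa peak, and in 1.81% of all summit windows and 2.19% of the flanking ones. CGATA was in 4 (22.2%), against 12.3% of all summit windows and 11.5% of windows 500 bp to either side. TATAAA was in 3 (16.7%), at Cdk1, twe and aurB, against 19.3% of all summit windows and 849 of the 7062 flanking ones. The windows had a median of 61.4% A and T, between 41.6% at Cdc6 and 83.2% at CycE, against 65.3% for all conservative summits and 57.4% for the flanking windows. With 18 windows, 1 window more or less moves a share by several percentage points.

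The other genes of the same processes were taken from 9 further lists of 188 distinct genes. Of these, 37 had a promoter summit in the conservative list (19.7%, 14.3 to 26.1), against 14.1% of protein-coding genes. The background lay just below that interval, and the share in the members, 16.7%, lay within it. These lists were chosen with earlier results of these data known, so the share is no evidence of an excess. Among genes with no other gene's TSS within 1000 bp, 4 of 55 (7.27%) had a promoter summit, against 8.15% of such protein-coding genes. Licensing and origin genes outside the member list had 2 of 12, with 84.3 at Rif1, a timing factor, and 69.0 at Psf3, a subunit of the GINS part of the replicative helicase. The DNA polymerase and fork genes had 8 of 31 (25.8%, 11.9 to 44.6), where the highest signals were above any member promoter, 563.7 at PolD2 and 562.1 at PolE4, subunits of the replicative polymerases. PolD2 shares its summit with CG13933 and PolE4 with qkr58E-3.

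Other cyclin, CDK and CDK regulator genes had 3 of 23, with 99.3 at gwl, the Greatwall kinase, and 89.8 at mts, the catalytic subunit of protein phosphatase 2A. The E2F, MuvB and Myb list had 2 of 10, with 122.3 at Rbf2 and 77.3 at mip130. The APC/C and SCF genes had 3 of 21, with 182.6 at Cdc16, an APC/C subunit, and 104.9 at vih, its ubiquitin-conjugating enzyme. Cohesin, separase and condensin genes had the highest share in the conservative list, 7 of 21 (33.3%, 14.6 to 57.0), with 472.2 at eco, the cohesin acetyltransferase, and 377.6 at pds5, a cohesin regulator. In the replicate 1 list they had 7 (33.3%, against 12.1% of protein-coding genes). In the replicate 2 list they had 4 (19%, against 10.6%), below the DNA damage checkpoint list at 22.2%, the other cyclin and CDK list at 21.7% and the DNA polymerase and fork list at 19.4%. Chromosomal passenger, centrosome and spindle genes had 8 of 29 (27.6%, 12.7 to 47.2), with 166.8 at ana2, a centriole duplication factor, and 159.3 at cnn, the centrosomal scaffold centrosomin. DNA damage checkpoint genes had 4 of 18, with 231.1 at mei-41, the ATR kinase, and 103.0 at tefu, the ATM kinase. The spindle checkpoint and kinetochore list had 0 of 23, which by the exact interval allows a share of up to 14.8%, and 3 in the longer list. The licensing and origin list and the E2F, MuvB and Myb list had no promoter summit in either replicate's own list, and the chromosomal passenger, centrosome and spindle list had 7 in that of replicate 1 and 4 in that of replicate 2. In the conservative list the intervals of 8 of the 9 lists hold the background of 14.1%, and that of the cohesin list starts at 14.6%. The intervals make no allowance for looking at 9 lists, which were chosen with earlier results of these data known. The cohesin share is therefore no evidence of an excess. Most of these summits are shared: a TSS of flw lies within 500 bp of the one at Psf3, of PGS1 at gwl, of Rack1 at mts, of CG32856 at Rbf2, of Edem1 at mip130, of orb at Cdc16, of CG10646 at vih, of lark at eco, of Mppe at pds5, of CG13751 at ana2, of TH1 at mei-41 and of Hsc70-4 at tefu.

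**Figure D5:**
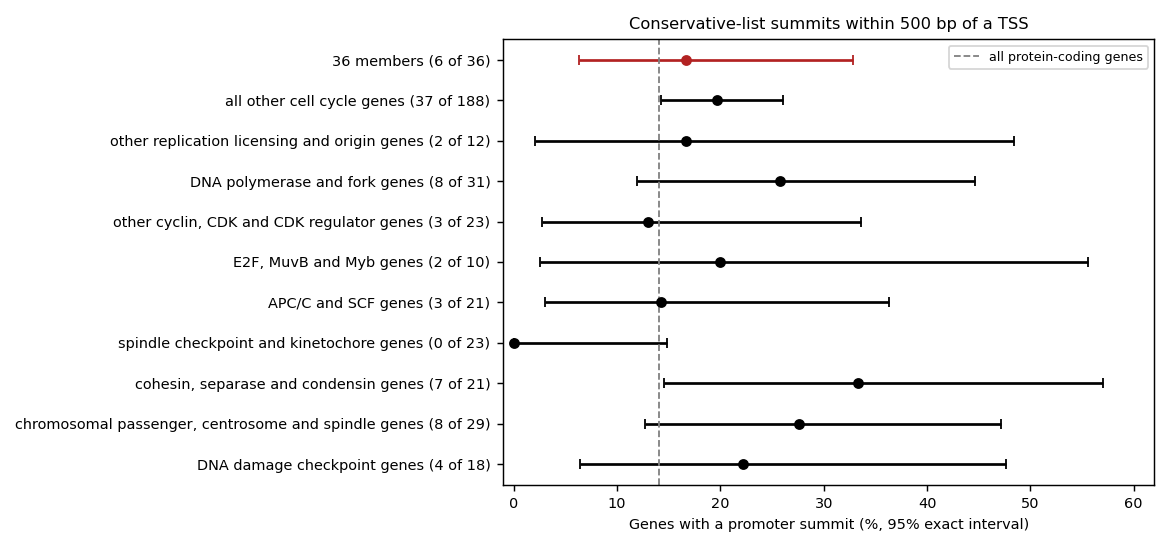
Percent of genes with a conservative promoter summit among the 36 members (red) and in the lists of other cell cycle genes (black), with 95% exact intervals, and the share of all protein-coding genes, 14.1%, as a dashed line. The members stand at 16.7%, and the lists run between 0% for spindle checkpoint and kinetochore genes and 33.3% for cohesin, separase and condensin genes.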

How the data were processed

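ChIP-seq peaks of 2 biological replicates in 1 group were used. The authors deposited 8 peak lists on dm6, per the labels: a thresholded and a ranked list for each replicate and for 2 combinations of both. Aligner, peak caller and control use were not given in the sources used here. Peak signal, as deposited by the authors, is in units of their peak caller and ranks peaks inside 1 list only. The deposited score rescales the irreproducible discovery rate (IDR), which estimates from peak ranks how reproducible a peak is, and no thresholded list goes below a score of 830, an IDR of 0.01. For 1 alternative, candidates were chosen by the deposited −log10 of the global IDR. Chromatin was sheared to a stated range of 200 to 800, without a unit, per the labels.

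A summit is the start plus the summit offset of the deposited file, in most peaks the centre of a peak of fixed width (390 bp in 82.1% of conservative peaks). Genes and TSSs were those of Ensembl release 115 (BDGP6.54), sequences those of the RefSeq dm6 genome, and positions are 1-based. The analysis ran under Python 3.11.15 (numpy 2.4.6, scipy 1.17.1, pandas 2.3.3, matplotlib 3.10.9). Shares have 95% exact Clopper-Pearson intervals, which cover counting error over genes alone. With 1 group there was no contrast, and no p-value was computed. The counting step was tested on simulated data, where 5 of 5 draws of 200 planted summits gave the same counts as a direct search over 18164 genes.

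The members and lists were chosen with earlier results of these data known. All members with a conservative summit in the wider region or a promoter summit in another list were named. Of members with no promoter summit in any thresholded list, the 3 highest and 3 lowest promoter candidates were named, leaving out members without a candidate. For each list of other cell cycle genes with a promoter summit, the 2 strongest were named. Other members named were added after their values were seen. Of 195 listed symbols of other cell cycle genes, 186 matched by symbol, 5 by synonym and 4 not at all, which left 188 distinct genes. Alternatives were the other lists, stricter and looser thresholds, other windows, RefSeq TSSs and genes without a close neighbour.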

Additional observations from a re-analysis of the deposited data

How the results depend on the processing

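With the list of replicate 1 or replicate 2 alone, the number of members with a promoter summit was between 1 and 5, against 6 from both, and with a summit in the wider region between 9 and 11, against 14. Without replicate 1 it was Dp alone that had a promoter summit. With the upper 50% of the conservative list by signal, 3 members (CycE, Cdk1 and Dp) had a promoter summit (8.33%, against 8.67% of protein-coding genes), 8 had a summit in the wider region (22.2%, against 17.4%), and 19 of the other cell cycle genes had a promoter summit (10.1%, against 8.67%). With ranked candidates of an IDR of at most 0.05, promoter summits were at 10 members (27.8%) and 57 other cell cycle genes (30.3%), against 21.0% of protein-coding genes. Summits within 250 bp of a TSS gave 2 members, Cdk1 and dup (5.56%, against 11.3%). The members' share was then below that of protein-coding genes, but with 2 members the shares cannot be told apart. A Dp summit at 251 bp fell just outside this window. The gene span with no flank gave 9 members (25%, against 18.5%). Among genes with no other gene's TSS within 1000 bp, 1 of 14 members (7.14%) and 4 of 55 other cell cycle genes (7.27%) had a promoter summit, against 8.15% of protein-coding genes. The cause of these moves was not tested.

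The longer list, RefSeq TSSs, any base of the peak and the wider windows moved these counts by less than 1.5 times. The median percentile lay between 57.5 and 67.4 in all settings tried. Of the members, 28 had a promoter summit neither in the main setting nor under any of the 8 alternatives tried per gene. Cdk4 and aurA had one only under such an alternative. The IDR limit of 0.05, which gave promoter summits at 10 members, was not among these 8, so it adds members that are not named here. No paired analysis was possible because the series has 1 group and no contrast. The depth of the libraries is unknown, so no limit of detection can be given for the 19 members without a peak.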
